A study of Mus musculus with 6 samples.

Results

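The TNF receptor and NF-kB core genes comprised 10 genes, chosen by name: the receptors Tnfrsf1a and Tnfrsf1b, the adaptors Traf1, Traf2 and Traf3, the transcription factor subunits Nfkb1 and Relb, and the regulators Nfkbia, Bcl3 and Tnfaip3. All 10 were found by gene symbol among the 55421 genes of the series, and all 10 were among the 18140 genes that passed the expression filter and were tested. RNA-seq was performed on total RNA from stable lines made from C2C12 (mouse myoblasts that form myotubes once serum is withdrawn) on day 4 of differentiation. All 6 libraries came from cells carrying a plasmid that expresses GFP with 200 CUG repeats (the DM1 model of the study). The control group (3 libraries) carried in addition an empty vector that the study does not name further. The miR-322/-503 group (3 libraries) carried in addition the pLL4.0 vector, which holds a puromycin fragment, with the miR-322/-503 fragment. Stable lines were selected with G418 or puromycin according to the resistance of their plasmids, and the drug of each line is not given. Each group was its own stable line, so the effect of the microRNAs and other differences between the lines cannot be told apart. The methods state in general that assays had both biological and technical replicates, but neither they nor the labels say which of these the libraries of a group are, so p-values measure the spread between these libraries, which may be technical. Cells without the repeats, and cells treated with TNF or a TNF signaling inhibitor, were not analysed here.

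Tumor necrosis factor signals through a pair of receptors. The one encoded by Tnfrsf1a is found on most cells and carries a death domain, and the one encoded by Tnfrsf1b lacks it and recruits TRAF2 directly. The signal frees NF-kB dimers from their IkB inhibitors, and NF-kB in turn induces several of its own regulators, among them IkBα (Nfkbia) and A20 (Tnfaip3). In myoblasts, TNF and NF-kB activity are known to hold back differentiation and to favor proliferation.

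Total estimated counts lay between 73532084 and 92157388 per library. About 4 counts stood for a read pair, so that the libraries held between 18379281 and 23035412 read pairs. The overexpressed microRNAs could not be followed, since Mir322 had between 0 and 17 counts and Mir503 between 1 and 6 counts in each of the 6 libraries. Markers of the muscle lineage were abundant, with the summed TPM (a level per transcript length, scaled to the same total in every library) of 10 myotube markers between 2800 and 3110 in the control and between 3210 and 3370 in the miR-322/-503 libraries. Of these markers 4 were higher and 2 lower (Myog at a log2 fold change of -0.74 and Myh1 at -1.43, adjusted p = 0.000665 and 7.48e-05 in edgeR), and Acta1, which held the most of the sum, did not pass the test (adjusted p = 0.465). Summed levels of 8 undifferentiated or cycling myoblast markers were 346 to 365 TPM in the control and 237 to 261 TPM with miR-322/-503, and 5 of the 8 were lower and 1, Myf5, higher in the test below. Those of 6 fibroblast markers were 3740 to 3990 against 2310 to 2460 TPM (3 lower and 1 higher of 5 tested), and Col3a1 made up most of these sums, with means of 3455 and 2026 TPM. The 8 macrophage and other blood cell markers summed to 4.80 to 7.19 TPM in the control and 5.80 to 6.56 TPM with miR-322/-503, with Adgre1 and Cd3e at 0 in every library and Ptprc, Itgam and Cd79a at no more than 12 counts. Of these markers 3 were tested and 1, Lyz2, was lower, from 141, 78 and 88 counts in the control to 0, 0 and 5 with miR-322/-503 (adjusted p = 0.00289 in edgeR). Of the 5 adipocyte markers, 4 were at 0 in every library and none passed the filter. Among 5 osteoblast markers the sums were 4.01 to 5.43 against 2.18 to 4.03 TPM (1 lower of 3 tested), and among 5 endothelial markers 0.493 to 0.524 against 1.58 to 2.38 TPM, where only Tek was tested and was higher. The part of these shifts in the results below was not tested. In bulk RNA, fewer cells of a type and less RNA per cell cannot be told apart.

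The receptor-to-nucleus core did not move as a block between the miR-322/-503 and control groups. Traf1, Bcl3, Tnfaip3 and Relb rose, Tnfrsf1b fell, and Tnfrsf1a, Traf2, Traf3, Nfkb1 and Nfkbia did not pass. The limit was an adjusted p of 0.05 by the quasi-likelihood test of edgeR. Thus 5 of 10 genes passed, while 28.8% of all tested genes did. In the upward direction 4 of 10 passed, against 13.2% of all tested genes, and in the downward direction 1 of 10, against 15.5%. The 10 genes were chosen with earlier results of these data known, so these shares are a description and not a test. With the added requirement of a log2 fold change above 1, Traf1 and Bcl3 remained (4.59% of all tested genes), and below -1 there was none of the 10 (5.29% of all tested genes). The 3 control and 3 miR-322/-503 values did not overlap for 6 of the 10 genes, the 5 above and Traf3, compared with 45.1% of all tested genes. The median log2 fold change of the 10 genes was -0.08, and that of all tested genes was -0.01, with quartiles at -0.30 and 0.28. On log2(TPM + 0.1) with limma, 2 of the 10 genes, Traf1 and Bcl3, were called higher.

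**Figure D1:**
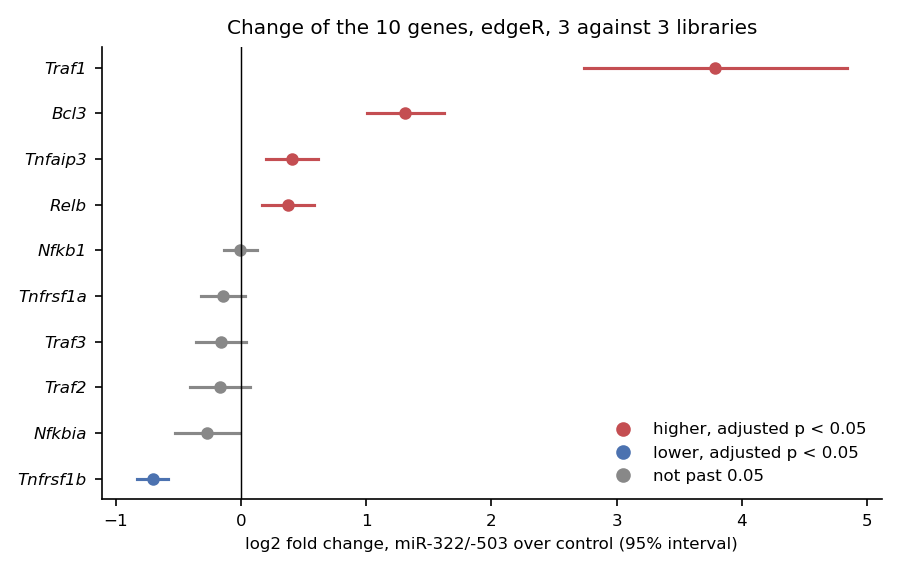
Log2 fold change of each of the 10 genes between the miR-322/-503 and control groups (x axis), with bars for the 95% interval of edgeR's fit to 3 against 3 libraries. Traf1 (3.79) and Bcl3 (1.31) lie farthest to the right, Tnfaip3 and Relb near 0.4, and Tnfrsf1b (-0.71) is the one gene on the left whose interval is clear of 0 and whose adjusted p is under 0.05.

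Between the receptors, Tnfrsf1b fell and Tnfrsf1a did not pass the test. Tnfrsf1b (ENSMUSG00000028599, GRCm38 chr4:145213463-145246870, minus strand), which encodes TNF receptor 2, stood at 76.1, 79.2 and 79.7 CPM (counts scaled to the normalized library size) in control libraries 1 to 3 and at 46.6, 48.3 and 49.1 CPM in miR-322/-503 libraries 1 to 3. The groups were far apart and the libraries within each differed little. The level was 38.8% lower (interval 33.2% to 43.8%), from 78.3 ± 1.94 to 48.0 ± 1.29 CPM (mean ± SD over 3 libraries), and the log2 fold change was -0.71 (SE 0.05, adjusted p = 7.54e-05 in edgeR). Tnfrsf1a (ENSMUSG00000030341, chr6:125349362-125362484, plus strand), which encodes TNF receptor 1, had 164, 160 and 149 CPM in the control and 136, 156 and 135 CPM with miR-322/-503. The second miR-322/-503 library lay among the control values, so the groups overlapped. Its log2 fold change of -0.15 had a 95% interval from -0.32 to 0.03 (adjusted p = 0.204 in edgeR), so a fall of up to 20.1% lies inside the interval. In each library the TPM of Tnfrsf1b was set over that of Tnfrsf1a. The ratio was 0.267, 0.276 and 0.298 in the control and 0.194, 0.172 and 0.200 with miR-322/-503. As a share of both receptor mRNAs, Tnfrsf1b held 21.9% ± 0.971 (SD, n = 3) in the control and 15.9% ± 1.06 with miR-322/-503. The ratios of the groups did not overlap, and the two-sided exact permutation p of 0.1 is the smallest that 3 against 3 libraries can give.

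Of the TRAF adaptors, which link receptors of the TNF family to ubiquitin ligases and kinases, Traf1 rose from near the limit of detection and Traf2 and Traf3 did not pass the test. Traf1 (ENSMUSG00000026875, chr2:34941750-34961772, minus strand) encodes an adaptor without the RING domain of the other TRAFs, and is itself known to be induced by NF-kB. It had 12, 5 and 21 estimated counts in control libraries 1 to 3, and 237, 154 and 146 in miR-322/-503 libraries 1 to 3. On the CPM scale this was 0.155, 0.0606 and 0.249 against 2.49, 2.05 and 1.94. Every miR-322/-503 library was above every control library, and the control values rest on a few read pairs each. The rise was 13.8-fold with a wide interval (6.67-fold to 28.6-fold), a log2 fold change of 3.79 (SE 0.45, adjusted p = 0.000714 in edgeR). On log2(TPM + 1) with limma, a scale that understates changes of low genes, the difference was 1.31, and the filter that required at least 10 counts in every library removed the gene.

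Traf2 (ENSMUSG00000026942, chr2:25517982-25546940, minus strand), the adaptor that TNF receptor complexes use in most cells, had 42.1, 37.5 and 34.7 CPM in the control and 37.3, 30.8 and 33.5 CPM with miR-322/-503. These groups overlapped, and the log2 fold change was -0.17 (interval -0.41 to 0.07, adjusted p = 0.276 in edgeR). Traf3 (ENSMUSG00000021277, chr12:111166370-111267153, plus strand), which keeps the kinase NIK low and so restrains the non-canonical NF-kB pathway, had 18.02, 19.3 and 17.97 CPM against 17.6, 15.4 and 16.6 CPM. Its groups were separated by a narrow gap and did not overlap, but the log2 fold change of -0.16 did not pass the test (interval -0.36 to 0.04, adjusted p = 0.218 in edgeR). The ratio of Traf1 to Traf2 in TPM was 0.0052, 0.00203 and 0.0121 in the control and 0.0712, 0.0820 and 0.0666 with miR-322/-503, again with an exact permutation p of 0.1, the smallest possible.

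Of the NF-kB subunits, Relb rose by a small amount and Nfkb1 did not pass the test. Nfkb1 (ENSMUSG00000028163, chr3:135584655-135691547, minus strand), which encodes p105 and its processed product p50, had 79.8, 85.0 and 80.2 CPM in the control and 83.9, 82.1 and 77.9 CPM with miR-322/-503. The values were interleaved, with a log2 fold change of -0.01 and a narrow interval from -0.14 to 0.12 (adjusted p = 0.952 in edgeR). The sign of so small a difference changed with the normalization. Relb (ENSMUSG00000002983, chr7:19606217-19629438, minus strand), the subunit of the non-canonical pathway, had 12.3, 10.8 and 11.8 CPM in the control and 14.7, 14.99 and 15.6 CPM with miR-322/-503. The lowest miR-322/-503 library was above the highest control library. The log2 fold change was 0.38 (SE 0.09, interval 0.17 to 0.58, adjusted p = 0.0165 in edgeR), a rise of 29.9%. This call rested on single libraries, because the adjusted p was 0.05 without control replicate 2, at the limit, and 0.0583 without miR-322/-503 replicate 3. The log2 fold changes of these fits were 0.32 and 0.35. In TPM, where Relb of the second miR-322/-503 library was higher than in the other two, limma gave adjusted p-values of 0.0772 with a pseudocount of 1 and 0.13 with a pseudocount of 0.1. The ratio of Relb to Rela, the transactivating subunit of the canonical pathway, was 0.144, 0.114 and 0.134 in the control and 0.143, 0.231 and 0.133 with miR-322/-503. These values overlapped (exact permutation p = 0.5).

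Of the regulators, Bcl3 and Tnfaip3 rose and Nfkbia did not pass the test. Bcl3 (ENSMUSG00000053175, chr7:19808462-19822770, minus strand) encodes an atypical IkB protein that acts in the nucleus on dimers of p50 or p52. It had 3.13, 3.26 and 3.96 CPM in the control and 8.29, 9.03 and 8.38 CPM with miR-322/-503. The groups were separated by more than the whole range within either. The rise was 2.48-fold (interval 2.004-fold to 3.08-fold), with a log2 fold change of 1.31 (SE 0.13, adjusted p = 0.000317 in edgeR). Tnfaip3 (ENSMUSG00000019850, chr10:19000910-19015657, minus strand) encodes A20, a ubiquitin-editing enzyme that ends NF-kB signaling. Its values were 22.6, 24.95 and 21.03 CPM in the control and 30.3, 28.8 and 31.8 CPM with miR-322/-503, without overlap. The level was 32.5% higher, a log2 fold change of 0.41 (SE 0.09, interval 0.20 to 0.62, adjusted p = 0.0129 in edgeR), which missed the limit on log2(TPM + 0.1) with limma (adjusted p = 0.0623). Nfkbia (ENSMUSG00000021025, chr12:55489410-55492647, minus strand), the classical IkB that NF-kB induces within a short time, had 17.97, 19.7 and 16.6 CPM in the control and 16.7, 14.1 and 14.0 CPM with miR-322/-503. Its first miR-322/-503 library lay within the control range. The log2 fold change was -0.28 with an interval from -0.53 to -0.02, and it did not pass the test after adjustment over all genes (adjusted p = 0.102 in edgeR).

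**Figure D2:**
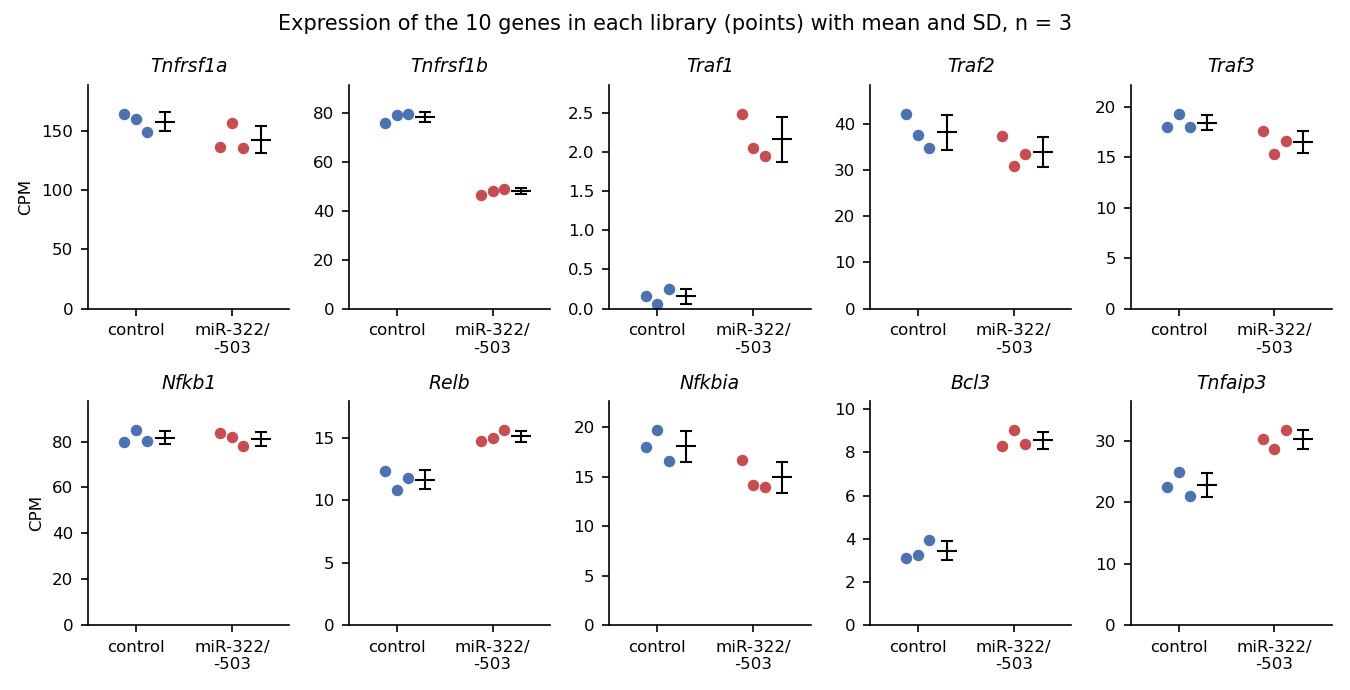
CPM of each of the 10 genes (y axes from 0, with a scale of its own for each gene) in the 3 control and 3 miR-322/-503 libraries (points), with the mean and SD of each group (n = 3). The groups are clearly apart for Tnfrsf1b, Traf1 and Bcl3, closer but without overlap for Relb, Tnfaip3 and Traf3, and overlapping for Tnfrsf1a, Traf2, Nfkb1 and Nfkbia.

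For 4 of the 10 genes other annotated genes overlap the locus, and the counting is not stated to use strand, so reads of the pair cannot be told apart there. The overlapping genes were low in these libraries. Gm13433 within Traf2 had 4 to 14 counts, 4930595D18Rik across Traf3 had 0 counts, Gm43430 within Nfkb1 had 4 to 22 counts, and Gm16175 and Gm16174, which are antisense to Bcl3, had 0 to 8 and 7 to 18 counts. Bcl3 itself had between 242 and 334 counts in the control and between 630 and 790 counts with miR-322/-503.

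Promoter sequences were examined because several of the 10 genes are textbook targets of NF-kB. Windows from 250 bases before to 50 bases after the annotated start were available from RefSeq (GRCm38.p6) for 8 of the 10 genes and were searched on both strands for the κB consensus, a motif of 10 bases. At least 1 match was found for 4 of these 8, namely Bcl3, Tnfaip3, Nfkbia and Traf3. Over all mouse promoter windows 8.49% of 32544 held a match, and of windows of tested genes 10.2% of 14663. These shares count windows, whereas the 4 of 8 counts genes. Tnfaip3 held 2 matches, at bases -125 to -116 and -12 to -3 from the RefSeq start, and a second annotated window of the gene held none. The span given above for Tnfaip3 reaches to 19015657 and so begins before that start, and both matches lie inside it. Traf1, the gene with the highest fold change of the 10, had no match in its window, and neither had Tnfrsf1a, Tnfrsf1b or Traf2. The windows of Traf1, Bcl3 and Tnfaip3, printed here to base 30 after the start and with matches in capitals, were as follows.
Traf1, chr2:34961743-34962022, minus strand: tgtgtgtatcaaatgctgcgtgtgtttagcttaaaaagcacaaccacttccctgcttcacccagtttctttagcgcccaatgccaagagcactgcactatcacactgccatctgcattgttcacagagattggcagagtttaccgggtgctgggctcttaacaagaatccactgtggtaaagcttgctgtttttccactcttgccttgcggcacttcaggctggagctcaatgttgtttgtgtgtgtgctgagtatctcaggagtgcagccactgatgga
Bcl3, chr7:19822726-19823005, minus strand: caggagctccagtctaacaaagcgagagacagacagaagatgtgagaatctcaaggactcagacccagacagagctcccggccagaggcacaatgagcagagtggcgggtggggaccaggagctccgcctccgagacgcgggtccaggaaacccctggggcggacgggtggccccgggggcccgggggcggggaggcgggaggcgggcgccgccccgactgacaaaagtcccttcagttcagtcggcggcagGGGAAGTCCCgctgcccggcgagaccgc
Tnfaip3, chr10:19015381-19015660, minus strand: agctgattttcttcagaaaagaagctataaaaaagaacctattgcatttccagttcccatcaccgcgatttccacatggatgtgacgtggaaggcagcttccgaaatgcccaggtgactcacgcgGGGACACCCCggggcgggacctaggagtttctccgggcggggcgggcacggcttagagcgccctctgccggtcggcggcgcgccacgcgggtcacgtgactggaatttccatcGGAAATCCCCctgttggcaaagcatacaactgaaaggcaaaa
The stretches around the match of Nfkbia, at bases -29 to -20, and of Traf3, at bases -10 to -1, are given for comparison, because these genes held a match and did not pass the test.
Nfkbia, chr12:55492647-55492696, minus strand: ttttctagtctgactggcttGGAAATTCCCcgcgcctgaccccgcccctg
Traf3, chr12:111166340-111166389, plus strand: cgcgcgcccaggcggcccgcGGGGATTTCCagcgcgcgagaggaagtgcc
Among the genes with a match, 2 rose (Bcl3 and Tnfaip3) and 2 did not pass the test, and of the 4 genes whose window held no match Traf1 rose, Tnfrsf1b fell and 2 did not pass. A match is a description of the sequence and not of binding, which was not measured here.

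Sequences that could pair with the overexpressed microRNAs are of interest because the study compared cells with and without their overexpression. The mature sequences (RefSeq, GRCm38.p6) have closely related seeds, bases 2 to 8, shown in capitals.
mmu-miR-322-5p, chrX:53054306-53054327, minus strand: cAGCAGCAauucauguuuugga
mmu-miR-503-5p, chrX:53054027-53054049, minus strand: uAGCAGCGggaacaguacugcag
Their seeds share 6 bases and differ in the last. The heptamers that pair with them are TGCTGCT for miR-322-5p and CGCTGCT for miR-503-5p, and both end in GCTGCT. In the longest annotated 3′UTR of each gene (GENCODE M21), TGCTGCT was found in 3 of the 10 genes, compared with 27.0% of 13487 tested genes that had a 3′UTR of at least 50 bases. Traf3 held 5 matches in a 3′UTR of 5093 bases, 2 of them overlapping, Nfkb1 held 2 overlapping matches in 2620 bases, and Tnfaip3 held 1 match in 1821 bases. CGCTGCT was in none of the 10, compared with 5.72% of the tested genes. The sites of these 3 genes, with only the first of each overlapping pair, were the following, where the coordinates are those of the heptamer in capitals.
Traf3, chr12:111263182-111263188, plus strand: tagatgtgacaTGCTGCTtcttgtccctg
Traf3, chr12:111263343-111263349, plus strand: cttgaagcctcTGCTGCTaaatattcaca
Traf3, chr12:111266224-111266230, plus strand: cccaccccggcTGCTGCTgctagccacga
Traf3, chr12:111267059-111267065, plus strand: tgtttctgttcTGCTGCTaataataaagt
Nfkb1, chr3:135594324-135594330, minus strand: cctgccatgtcTGCTGCTgctggtggctg
Tnfaip3, chr10:19002464-19002470, minus strand: cctgaagctatTGCTGCTcgtctaccagg
Of the genes with a match, Tnfaip3 was higher, and Traf3 and Nfkb1 did not pass the test. Tnfrsf1b, the gene of the 10 that fell, had neither heptamer nor the shared hexamer in its 3′UTR of 2324 bases. Over the 13487 tested genes with such a 3′UTR, the median log2 fold change was 0.01 with TGCTGCT and -0.02 without it.

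Levels of the 10 genes were compared per length on the TPM scale, and their order differed between the groups in the middle ranks. In the control, Tnfrsf1a was the most abundant at 142 ± 8.23 TPM (SD, n = 3), followed by Nfkb1 (55.1 ± 3.42 TPM), Tnfrsf1b (39.6 ± 0.13 TPM), Traf2 (30.3 ± 2.57 TPM) and Nfkbia (22.4 ± 1.74 TPM). Each of these was above the next in every library. Traf3, Tnfaip3 and Relb came next with means of 10.9, 10.8 and 10.7 TPM, and their libraries overlapped, so that no order among them can be given. Bcl3 (4.83 ± 1.48 TPM) and Traf1 (0.191 ± 0.14 TPM) were lowest. With miR-322/-503, Tnfrsf1a (127 ± 13.3 TPM) and Nfkb1 (55.2 ± 4.12 TPM) kept the first places, and Tnfrsf1b (23.7 ± 0.653 TPM) stood below Traf2 (26.5 ± 3.24 TPM), their libraries separated only by the gap between 24.2 and 24.4 TPM. Nfkbia, Relb and Tnfaip3 formed an overlapping run with means of 18.7, 15.2 and 14.9 TPM, Bcl3 (11.01 ± 0.155 TPM) overlapped Traf3 (10.1 ± 1.47 TPM), and Traf1 was last at 1.94 ± 0.278 TPM.

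**Figure D3:**
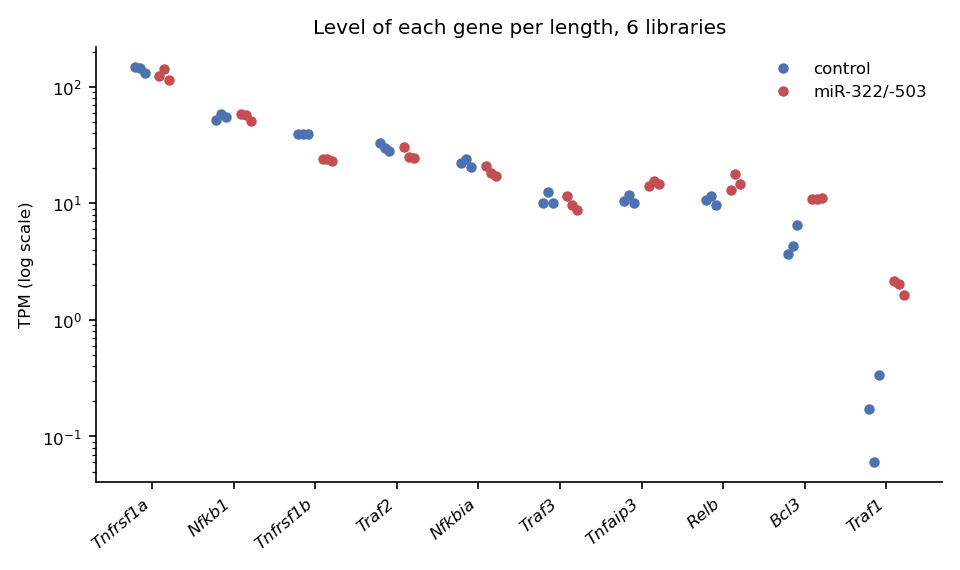
TPM of each of the 10 genes on a log axis in the 3 control (blue) and 3 miR-322/-503 (red) libraries, ordered by the control mean. Tnfrsf1a is the highest in every library and Traf1 the lowest, at 0.0606 to 0.339 TPM in the control and 1.62 to 2.15 TPM with miR-322/-503.

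The wider pathway was described with 7 lists of other genes, 96 in all, of which 77 were tested. Of these, 12 were higher and 13 were lower, so that 32.5% passed the test in edgeR beside 28.8% of all tested genes, and the median log2 fold change was 0.03. The number of higher genes depended on the measure, with 6 on log2(TPM + 1) and 3 on log2(TPM + 0.1) in limma. On that last scale the calls of Tnfrsf9, Tab3, Ikbkg, Ikbke, Chuk, Rela, Tnip2, Sod2 and Tnfaip2 named below ended, with adjusted p-values from 0.0713 (Tnfrsf9) to 0.632 (Rela), and on log2(TPM + 1) those of Tab3, Ikbkg, Ikbke, Chuk, Rela and Tnfaip2, with 0.0515 (Ikbkg) to 0.652 (Rela). Of the 13 lower genes, 8 were in the list of target genes. The counts of each list below stand beside 13.2% of all tested genes called higher and 15.5% called lower.

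Of 12 TNF superfamily ligands, 7 were tested, with 1 higher, 1 lower and a median log2 fold change of 0.46. That median is the value of Lta, at 5 to 25 counts per library (adjusted p = 0.704 in edgeR). Tnfsf9 and Tnfsf15, with at least 708 counts in every library, had log2 fold changes of 0.10 and 0.14 and did not pass. The higher ligand was Tnfsf13b, which encodes BAFF (log2 fold change 1.62, adjusted p = 0.0178 in edgeR). It had 16, 11 and 18 counts in the control and 62, 35 and 44 with miR-322/-503. Tnf itself was barely detected, at 4, 7 and 8 counts in control libraries 1 to 3 and 40, 20 and 10 counts in miR-322/-503 libraries 1 to 3. All control libraries were at or under 3 read pairs, and the difference did not pass the test (adjusted p = 0.0652 in edgeR). Tnfsf12, which encodes TWEAK, a ligand known for its role in muscle wasting, fell from 17.8 ± 1.02 to 12.04 ± 0.777 CPM (log2 fold change -0.56, SE 0.09, adjusted p = 0.00315 in edgeR). Of 16 other receptors that bind TRAFs, 12 were tested, with 1 higher, 2 lower and a median of 0.02. Tnfrsf9, the receptor 4-1BB that signals through TRAF1 and TRAF2, rose from 0.423 ± 0.11 to 1.49 ± 0.223 CPM (log2 fold change 1.81, adjusted p = 0.00317). Tnfrsf13c, the receptor for BAFF, fell from 1.29 ± 0.146 to 0.167 ± 0.0597 CPM, and Tnfrsf21, or death receptor 6, from 7.28 ± 1.03 to 3.06 ± 0.313 CPM (log2 fold changes -2.94 and -1.25, adjusted p = 0.000728 and 0.000837). On log2(TPM + 1) the difference of Tnfrsf9 was 1.09 and that of Tnfrsf13c was -1.03.

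Of 15 genes of the complex next to the receptor, 14 were tested, with 2 higher, none lower in edgeR, and a median of -0.04. Traf4, a TRAF family member with roles mainly in development, rose from 82.4 ± 6.03 to 129 ± 5.03 CPM (log2 fold change 0.64, SE 0.07, adjusted p = 0.000424). Tab3, which couples ubiquitin chains to the kinase TAK1, rose from 13.0 ± 0.845 to 18.7 ± 2.68 CPM (log2 fold change 0.53, adjusted p = 0.0151), a call that ended without control replicate 1 (adjusted p = 0.0568) or control replicate 2 (0.0541). The list of IKK and related kinases also holds genes of regulatory subunits and adaptors that are not kinases. All 9 of its genes were tested, with 3 higher (13.2% of all tested genes), none lower in edgeR (15.5%), and a median of 0.24. Ikbkg, the regulatory subunit NEMO, rose from 32.5 ± 2.92 to 48.0 ± 4.78 CPM (log2 fold change 0.56, SE 0.10, adjusted p = 0.00497). Ikbke rose from 15.98 ± 1.08 to 20.6 ± 1.78 CPM (adjusted p = 0.0266), and Chuk, which encodes IKKα, from 37.6 ± 2.99 to 47.2 ± 0.978 CPM (adjusted p = 0.0154). Without miR-322/-503 replicate 3 the adjusted p of Chuk was 0.0558. For Ikbke it was 0.0772 without control replicate 1, 0.0782 without control replicate 3, 0.0725 without miR-322/-503 replicate 1 and 0.0569 without miR-322/-503 replicate 2. Ikbkb, which encodes IKKβ, the kinase of the canonical pathway, had 52.0 ± 3.38 and 51.9 ± 2.99 CPM (interval of the log2 fold change -0.18 to 0.17, adjusted p = 0.979).

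All 7 other NF-kB and IkB genes were tested, with 1 higher, 1 lower and a median of 0.06. Rel, the c-Rel subunit, fell from 31.2 ± 4.36 to 18.7 ± 1.25 CPM (log2 fold change -0.74, SE 0.12, adjusted p = 0.00272 in edgeR). Rela was called higher by a small amount, from 77.2 ± 3.66 to 91.3 ± 2.46 CPM (log2 fold change 0.24, SE 0.06, adjusted p = 0.0169). That call ended without control replicate 1 (adjusted p = 0.061), without miR-322/-503 replicate 2 (0.0618) and without miR-322/-503 replicate 3 (0.0558). The 20 tested genes nearest to Rela on chromosome 19 had a median of 0.18, against 0.135 for that chromosome. For Chuk, on the same chromosome, the 20 nearest had a median of 0.16. The part of these shifts in both rises was not tested. Nfkb2, which encodes p100 and p52, the partner of RelB, had 56.8 ± 1.01 and 59.3 ± 3.28 CPM (log2 fold change 0.06, interval -0.08 to 0.20, adjusted p = 0.508). Of 10 ubiquitin-editing negative regulators, 9 were tested, with 1 higher, 1 lower and a median of 0.02. Tnip2, an A20-binding protein, rose from 13.6 ± 1.47 to 20.3 ± 2.58 CPM (log2 fold change 0.58, adjusted p = 0.0117), and N4bp1 fell from 119 ± 11.3 to 65.0 ± 2.30 CPM (log2 fold change -0.87, adjusted p = 0.000192). All 20 tested genes nearest to N4bp1 on chromosome 8 were also below 0, with a median of -0.58, and the part of that region in its fall was not tested.

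Of 27 known NF-kB target genes, 19 were tested, and here 3 were higher (13.2% of all tested genes) and 8 lower (15.5% of all tested genes), with a median log2 fold change of -0.46. Cxcl1, a neutrophil chemokine, fell from 16.7 ± 0.726 to 2.70 ± 0.506 CPM (log2 fold change -2.64, SE 0.15, adjusted p = 2.43e-05 in edgeR). Ptgs2, the inducible cyclooxygenase, fell from 126 ± 8.62 to 30.3 ± 1.34 CPM (log2 fold change -2.05, SE 0.07, adjusted p = 2.8e-06). Csf1, the macrophage growth factor, had 339, 373 and 368 CPM in the control and 169, 177 and 84.9 CPM with miR-322/-503 (log2 fold change -1.33, adjusted p = 0.00684), so its miR-322/-503 libraries were uneven, with the third the lowest. Nos2, the inducible nitric oxide synthase, went the other way, from 1.52 ± 0.292 to 8.33 ± 1.14 CPM (log2 fold change 2.45, SE 0.19, adjusted p = 9.27e-05, with a difference of 1.48 on log2(TPM + 1)). The other lower genes were Cxcl5, Gadd45b, Ier3 and Vcam1, with log2 fold changes from -1.11 to -0.46, and Ccl5, which had 52, 62 and 67 counts in control libraries 1 to 3 and 3, 5 and 8 counts, at or under 3 read pairs, in miR-322/-503 libraries 1 to 3, and the other higher genes were Sod2 (0.28) and Tnfaip2 (0.35). The call of Tnfaip2 was fragile, with adjusted p-values of 0.132 and 0.114 without control replicates 2 and 3, 0.0892, 0.125 and 0.0597 without miR-322/-503 replicates 1, 2 and 3, and 0.0566 with no filter on low counts. As given above, the summed level of cycling markers was lower in the same libraries, as was that of fibroblast markers, which is mostly Col3a1, and their part in these falls was not tested.

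**Figure D4:**
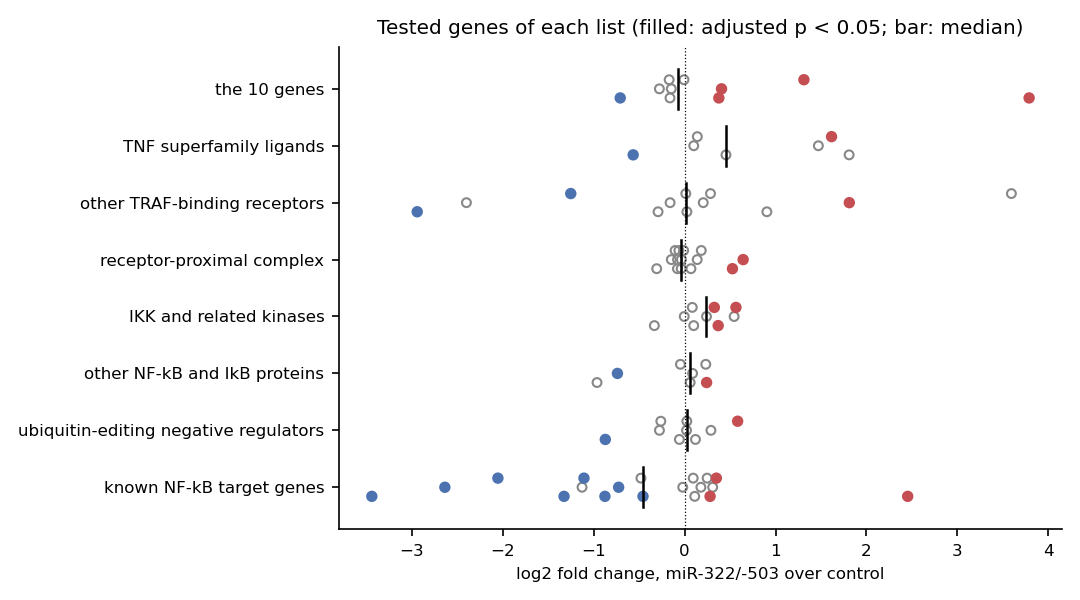
Log2 fold change (x axis) of every tested gene of the 10 core genes and of each pathway list, which leaves the core genes out. Filled points passed an adjusted p of 0.05 (red higher, blue lower), open points did not, and the bar is the list median, which lies at -0.46 for the target genes and between -0.08 and 0.46 for the others. The highest median, of the TNF superfamily ligands, is the value of Lta, at 5 to 25 counts per library.

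Neighbouring genes on the chromosome were examined for shifts shared by a region, leaving the 10 core genes themselves out of each other's neighbours, so that Relb is not counted around Bcl3, nor Bcl3 around Relb. Around Tnfrsf1b, 15 of the 20 nearest tested genes were below 0 and 6 were called lower (1 higher), with a median log2 fold change of -0.49, while the median over the other tested genes of chromosome 4 was -0.19. Tnfrsf1b itself, at -0.71, was farther from 0 than that median. Relb and Bcl3 lie 179 kb apart on chromosome 7 with 5 tested genes between them. The 20 genes nearest to Bcl3 had a median of 0.27, with 5 called higher and none lower in edgeR, and those nearest to Relb a median of 0.19, with 6 higher and 1 lower, against 0.01 for the chromosome. Since the 2 genes share part of their neighbours, these are not separate observations, and the value of Relb (0.38) is closer to the median of its neighbours than that of Bcl3 (1.31). Around Traf1 and Tnfaip3 the medians were -0.02 and -0.01. For the genes that did not pass the test, the neighbour medians lay between -0.20 (Traf3) and 0.11 (Nfkbia). The part of these regions in the changes was not tested.

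**Figure D5:**
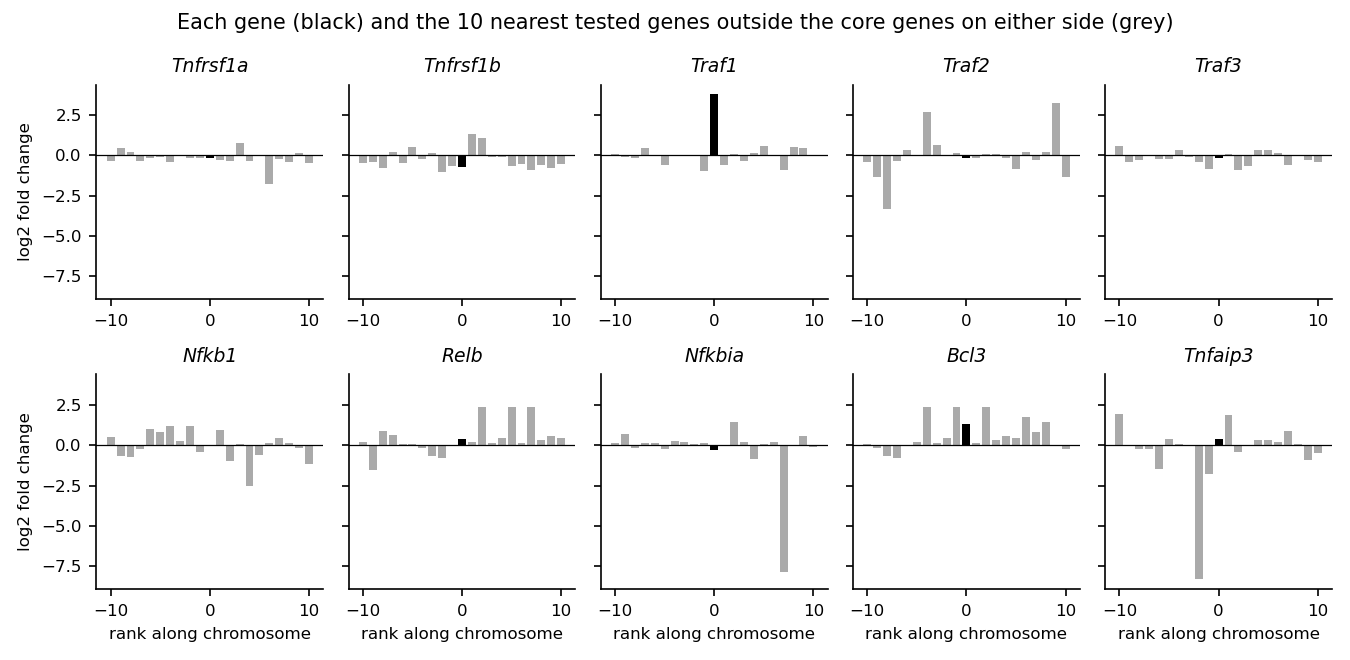
Log2 fold change (y axis) of each of the 10 genes (black bar at rank 0) and of the 10 nearest tested genes outside the core genes on either side along the chromosome (grey bars). Most bars around Tnfrsf1b are below 0, most around Bcl3 are above 0, and Traf1 stands alone above its neighbours.

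For the core genes past both limits, the genes with the most similar profile were sought as those with the smallest root mean square difference of mean-centred log2 CPM over the 6 libraries. For Traf1 these were 4833415N18Rik and Cd28 (both at a difference of 0.348) and Pde1b (0.403), with log2 fold changes of 4.18, 3.23 and 3.60. For Bcl3 they were AW046200 (0.0626), Ednra (0.0729) and Adam22 (0.0797), with log2 fold changes of 1.42, 1.28 and 1.27. On log2(TPM + 1) the differences were smaller for Cd28 (1.57), Pde1b (2.31), AW046200 (0.40) and Adam22 (0.26). Over 6 libraries in 2 groups, such likeness rests mainly on the change between the groups.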

How the data were processed

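The 3 control and 3 miR-322/-503 RNA-seq libraries were grouped by their labels. Per the submitters' processing notes and methods, reads were trimmed with Trim Galore, aligned to GRCm38 with HISAT2 and quantified with StringTie. Versions and the gene annotation are not given in the sources used here. The deposited matrix holds whole-number estimated counts of each gene that were not normalized. The tables deposited for each library hold FPKM, TPM and coverage (signal), computed by the authors with StringTie. Coverage served only to find that a read pair equals about 4 counts, and FPKM only as an alternative to TPM in the ratios between genes. Gene symbols were joined to the counts by gene identifier.

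Counts were tested as deposited with edgeR 4.0.16 (filterByExpr, TMM, glmQLFit, glmQLFTest, Benjamini-Hochberg adjustment over 18140 genes) in R 4.3.3. A standard error is the size of the log2 fold change divided by the square root of F, and a 95% interval uses the matching t quantile. The computation was tested on simulated data. Alternatives were DESeq2 1.42.0, other normalizations and filters, counts divided by 4, limma 3.58.1 on log2(TPM + 1) and log2(TPM + 0.1), a replicate block and leaving out each library.

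The members and lists were chosen with earlier results of these data known. Named genes are all 10 members, up to 4 called genes per list with the largest change (mean in the higher group 1 CPM or more), Rela, Nfkb2, Tnf and Ikbkb, and 3 similar genes for each member past both limits. The other target genes past the limit were named after their values were seen. Lta, Tnfsf9, Tnfsf13b and Tnfsf15 were also named then, and the alternative settings were not followed for them. Promoter and microRNA sequences are from RefSeq (GRCm38.p6), and 3′UTRs from GENCODE M21.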

Additional observations from a re-analysis of the deposited data

How the results depend on the processing

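Over 15 alternative settings, 136 of the values of the 10 genes kept their direction and their side of the threshold, 5 lost the threshold (Relb under 4 settings and Tnfaip3 under 1, all given above) and 8 changed sign, all of them Nfkb1. Its log2 fold change was 0.0022 with DESeq2, 0.0053 with size factors of the DESeq2 type, 0.0115 with upper quartile factors, 0.0020 with counts divided by 4, 0.0029 on log2(TPM + 1) and 0.0030 on log2(TPM + 0.1), and between -0.0256 and 0.0239 when a library was left out. Ikbkb likewise had 0.0051, 0.0080, 0.0142 and 0.0051 under the first 4 of these settings and between -0.0493 and 0.0432 when a library was left out. Both genes were far from the threshold throughout. Of the named list genes, 268 values kept their direction and side of the threshold, 22 lost the threshold and 7, all of Ikbkb, changed sign. Of the other target genes named, 95 values kept both and 9 lost the threshold (Tnfaip2 under 8 settings and Sod2 under 1), and all 90 values of the similar genes kept both.

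Of the 10 genes, 2 in place of 4 were called higher on log2(TPM + 0.1), and 1 in place of 2 was higher beyond a log2 fold change of 1 when at least 10 counts in every library were required, because Traf1 was then not tested. Of all genes, 1264 were higher and 1699 lower on log2(TPM + 0.1), in place of 2401 and 2817, and 382 were higher and 559 lower beyond a log2 fold change of 1 on log2(TPM + 1), in place of 832 and 959. The pathway lists held 6 and 3 higher genes on log2(TPM + 1) and log2(TPM + 0.1), in place of 12. The cause of the differences on the TPM scale was not tested.

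With the replicate number as a block, 4 of the 10 genes were higher and 1 lower, 2667 of all genes were higher and 3066 lower, and the pathway lists held 17 higher and 15 lower genes in place of 12 and 13. No call changed for the 10 genes, the named genes of the pathway lists or the similar genes (markers, Lta, Tnfsf9, Tnfsf13b and Tnfsf15 were not run). The deviations of same-numbered libraries correlated at 0.131, 0.0687 and 0.0451, and those of differently numbered libraries between -0.108 and 0.0401. The same-numbered values were thus the highest, though all were small. The labels do not state a pairing by number, and the main test used none. Whether same-numbered libraries shared a batch was not tested. Low depth limits Traf1, Tnf and Tnfsf13b in the control libraries, Ccl5 and Tnfrsf13c in the miR-322/-503 libraries and Lta in both, where each rests on a few read pairs. Ratios of FPKM equal those of TPM, since both scale all genes of a library alike. With 3 libraries a group no exact permutation p can be below 0.1.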
